A study of Mus musculus with 9 samples.

Results

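The 9 genes described here make arginine and creatine, carry and charge creatine, or divert arginine and ornithine to other uses. They are Ass1, Asl, Gatm, Gamt, Slc6a8, Ckb, Arg2, Odc1 and Oat. They were chosen by gene symbol for these roles, with their normalized counts in all 9 libraries already known. Their values, and any count of calls or of unadjusted p-values among them, are therefore given as a description. No p-value of a single one of them is given, and nothing is concluded from them. They are 9 of 54838 genes in the deposited table, and all 9 were among the 24539 genes with a normalized count and the 19656 whose normalized counts averaged 5 or more.

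In the proximal tubule of the kidney, citrulline from the blood is turned into arginine. Argininosuccinate synthase (Ass1) joins citrulline to aspartate, and argininosuccinate lyase (Asl) splits the product into arginine and fumarate. Glycine amidinotransferase (Gatm) moves the amidino group of arginine to glycine, which gives guanidinoacetate and ornithine, and guanidinoacetate methyltransferase (Gamt) methylates guanidinoacetate to creatine. Arginine is also split into ornithine and urea by the mitochondrial arginase Arg2, and ornithine goes to polyamines through ornithine decarboxylase (Odc1) or toward glutamate and proline through ornithine aminotransferase (Oat).

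RNA was sequenced from CD1 mouse embryonic kidney cells sorted for CD133 (prominin-1, gene Prom1), which the labels call proximal tubule cells. Mutant rapamycin kidneys carried Six2 Cre with Tsc1 fl/fl, and the pregnant dams received intraperitoneal rapamycin, an inhibitor of the kinase complex mTORC1, at 0.2 mg/kg every other day between E12.5 and E16.5. All kidneys were taken at E18.5. Mutant vehicle kidneys had the same genotype and DMSO in place of rapamycin. Control vehicle kidneys were Tsc1 fl/fl without Cre, under DMSO, and carry the title wild type. Each group had 3 libraries, named only by a replicate number, so the spread that the tests measure is that between libraries and may be technical in part. The floxed Tsc1 alleles were shared by all 3 groups. Six2 Cre is active in nephron progenitors and so deletes Tsc1, a brake on mTORC1, in them and their descendants. Rapamycin-treated controls and Cre carriers without floxed Tsc1 were not analysed here.

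Between 23372093 and 32669791 reads were counted per library. Reads on ribosomal RNA genes made up 6.34% of control 1 and 3.73% of rapamycin library 2, against 0.473% to 1.49% of the other 7 libraries. Xist and Y-linked RNA occurred together in 8 libraries, and control 1 had 14 Y-linked reads. Tsc1 had a log2 difference of -0.07 ± 0.13 (SE) between mutant vehicle and control vehicle (limma adjusted p = 0.962); the sources used here do not name the deleted exons, and a count over the whole gene cannot check the deletion. All 16 proximal tubule markers had counts, and they summed to 34123 to 46496 normalized counts in mutant rapamycin, 25895 to 29377 in mutant vehicle and 22361 to 27248 in control vehicle libraries. The 10 stromal markers, led by collagen genes, summed to 149753 to 189408 normalized counts in mutant rapamycin, 94356 to 111778 in mutant vehicle and 104582 to 117963 in control vehicle libraries. The sorted cells were thus a mixture by these markers, and in such bulk RNA fewer cells of a type and less RNA per cell cannot be told apart.

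The sequences upstream of Ass1 and Gatm are shown because these were the genes of the 9 with the largest differences between mutant vehicle and control vehicle libraries. They come from RefSeq (GRCm38.p6), end just before the GENCODE M21 start of the gene, 63 bases short of the RefSeq start for Ass1 and 26 for Gatm, and run 5′ to 3′ on the strand of the gene. Capitals mark CG pairs.
Ass1 (chr2:31470020-31470206, forward strand): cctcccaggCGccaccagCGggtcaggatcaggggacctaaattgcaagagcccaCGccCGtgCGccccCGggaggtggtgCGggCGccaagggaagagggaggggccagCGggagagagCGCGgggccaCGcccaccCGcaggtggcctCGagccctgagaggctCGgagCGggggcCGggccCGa
Gatm (chr2:122611304-122611527, reverse strand): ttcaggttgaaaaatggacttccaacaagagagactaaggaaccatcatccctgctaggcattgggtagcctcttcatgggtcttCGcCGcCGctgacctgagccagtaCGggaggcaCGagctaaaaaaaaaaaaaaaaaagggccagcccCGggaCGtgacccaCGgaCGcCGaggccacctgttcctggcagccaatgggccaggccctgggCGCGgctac
The Ass1 stretch, 187 bases, held 18 CG pairs, and the Gatm stretch, 224 bases, held 12. Over the full 250 bases before the RefSeq start, Ass1 had 23 CG pairs and Gatm 17, against a median of 6 in 32851 such windows. Odc1 had 35, Ckb 16, Oat 14 and Gamt 12 over the same length. RefSeq windows matched 6 of the 9 genes.

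The windows were searched on both strands for 6 motifs. They were the E box CACGTG (in 6.02% of all 32851 windows), the GC box GGGCGG (32.7%), the TATA box TATAAA (12.4%), GTTAAT, which is 1 arm of the palindromic HNF1 site (6.43%), an ATF4 composite site TGATGNAAN (3.44%) and an HNF4 site CAAAGTCCA (0.384%). Ass1 held an E box 36 bases and a GC box 63 bases upstream of the RefSeq start, both at or past the GENCODE M21 start and so beyond the letters shown. Gatm and Oat held none of the 6 motifs. Odc1 held 4 GC boxes, Gamt 3 GC boxes and Ckb a TATA box 28 bases upstream. No 2 motifs overlapped in these 6 windows, and a match of letters is not evidence that a factor binds there.

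Of the 9 genes, Ass1 had the largest log2 differences between mutants and controls. Ass1 (ENSMUSG00000076441, chromosome 2, 31470207 to 31520672, build GRCm38) showed 1567, 1639 and 1662 normalized counts in mutant rapamycin libraries, 1588, 1410.2 and 1535 in mutant vehicle libraries and 435, 555 and 569.6 in control vehicle libraries. All 6 mutant libraries lay above every control library, and the 2 mutant groups overlapped. Mutant vehicle libraries averaged 1511 ± 91.3 and control vehicle libraries 519.7 ± 73.99 (SD, n = 3 each), a log2 difference of 1.55 ± 0.13 (SE) on the log2(normalized count + 1) scale. Between mutant rapamycin and mutant vehicle the log2 difference was 0.10 ± 0.13, and between mutant rapamycin and control vehicle it was 1.65 ± 0.13. The lowest and highest values on leaving out 1 library at a time were 1.42 and 1.62 against control vehicle for mutant vehicle, 0.06 and 0.14 between the mutant groups, and 1.53 and 1.72 against control vehicle for mutant rapamycin.

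Asl, the enzyme that completes arginine synthesis (ENSMUSG00000025533, chromosome 5, 130011258 to 130029247), had 857, 881 and 907 normalized counts in mutant rapamycin, 855, 817 and 1021 in mutant vehicle and 633, 608 and 835 in control vehicle libraries. Control 3 lay above mutant vehicle library 2, so those groups overlapped, while every mutant rapamycin library lay above every control. For Asl the log2 difference was 0.38 ± 0.15 (SE) between mutant vehicle and control vehicle, -0.02 ± 0.15 between mutant rapamycin and mutant vehicle and 0.36 ± 0.15 between mutant rapamycin and control vehicle. The Asl value between the mutant groups changed sign, to 0.08, without mutant vehicle library 3.

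Gatm, which commits arginine to creatine (ENSMUSG00000027199, chromosome 2, 122594467 to 122611303), had 1506, 1751 and 1893 normalized counts in mutant rapamycin libraries, 2374, 2528 and 2077 in mutant vehicle libraries and 1304, 1052 and 1052 in control vehicle libraries. No 2 of the 3 groups overlapped, with mutant vehicle highest, mutant rapamycin between and control vehicle lowest. Means were 1717 ± 196 in mutant rapamycin, 2327 ± 229 in mutant vehicle and 1136 ± 146 in control vehicle libraries (SD, n = 3 each). The log2 difference was 1.04 ± 0.14 (SE) between mutant vehicle and control vehicle, -0.44 ± 0.14 between mutant rapamycin and mutant vehicle and 0.60 ± 0.14 between mutant rapamycin and control vehicle. Ass1 and Gatm, both higher in the mutants, thus stood apart under rapamycin, where Ass1 libraries overlapped those of mutant vehicle and Gatm libraries lay below them. Whether that contrast between the 2 genes exceeds the spread was not tested, because the genes were picked with these values known.

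Gamt, the methyltransferase of the second step (ENSMUSG00000020150, chromosome 10, 80258151 to 80261012), had 283, 222 and 251 normalized counts in mutant rapamycin, 218, 247 and 205 in mutant vehicle and 234, 202 and 332 in control vehicle libraries. All 3 groups overlapped, and control 3 held the highest value. Its log2 difference came to -0.17 ± 0.20 (SE) between mutant vehicle and control vehicle and 0.17 ± 0.20 between mutant rapamycin and mutant vehicle. The first of these changed sign, to 0.03, without control 3.

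The X-linked creatine transporter Slc6a8 (ENSMUSG00000019558, chromosome X, 73673150 to 73682502) had 2655, 2691 and 2562 normalized counts in mutant rapamycin libraries, 2842, 2939 and 3476 in mutant vehicle libraries and 1958, 2506 and 2537 in control vehicle libraries. The groups did not overlap, in the same order as for Gatm but over a narrower range. Its log2 difference was 0.41 ± 0.13 (SE) between mutant vehicle and control vehicle, -0.22 ± 0.13 between mutant rapamycin and mutant vehicle and 0.19 ± 0.13 between mutant rapamycin and control vehicle. Control 1, the library with few Y-linked reads, was the lowest of the 9, and without it the differences from control vehicle were 0.06 for mutant rapamycin and 0.29 for mutant vehicle; its part in the order of groups was not tested beyond that.

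Ckb, the brain-type creatine kinase that charges creatine with phosphate (ENSMUSG00000001270, chromosome 12, 111669361 to 111672338), had 1661, 954 and 1285 normalized counts in mutant rapamycin, 1377, 1354 and 1393 in mutant vehicle and 1061, 901 and 1366 in control vehicle libraries. Mutant vehicle libraries lay close together (SD 19.97), inside the range of the rapamycin libraries (SD 354), and control 3 overlapped them. For Ckb the log2 difference was 0.33 ± 0.20 (SE) between mutant vehicle and control vehicle and -0.12 ± 0.20 between mutant rapamycin and mutant vehicle. The first of these was 0.19 without control 2 and 0.49 without control 3, and the second was -0.31 without rapamycin library 1 and changed sign, to 0.09, without rapamycin library 2. Of the other creatine kinases, the muscle form Ckm had 5 reads and the mitochondrial muscle form Ckmt2 had 2 over all 9 libraries, while the ubiquitous mitochondrial form Ckmt1 averaged 115 ± 19.1 normalized counts in mutant rapamycin, 129 ± 58.3 in mutant vehicle and 146 ± 32.4 in control vehicle libraries (SD, n = 3 each).

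**Figure D1:**
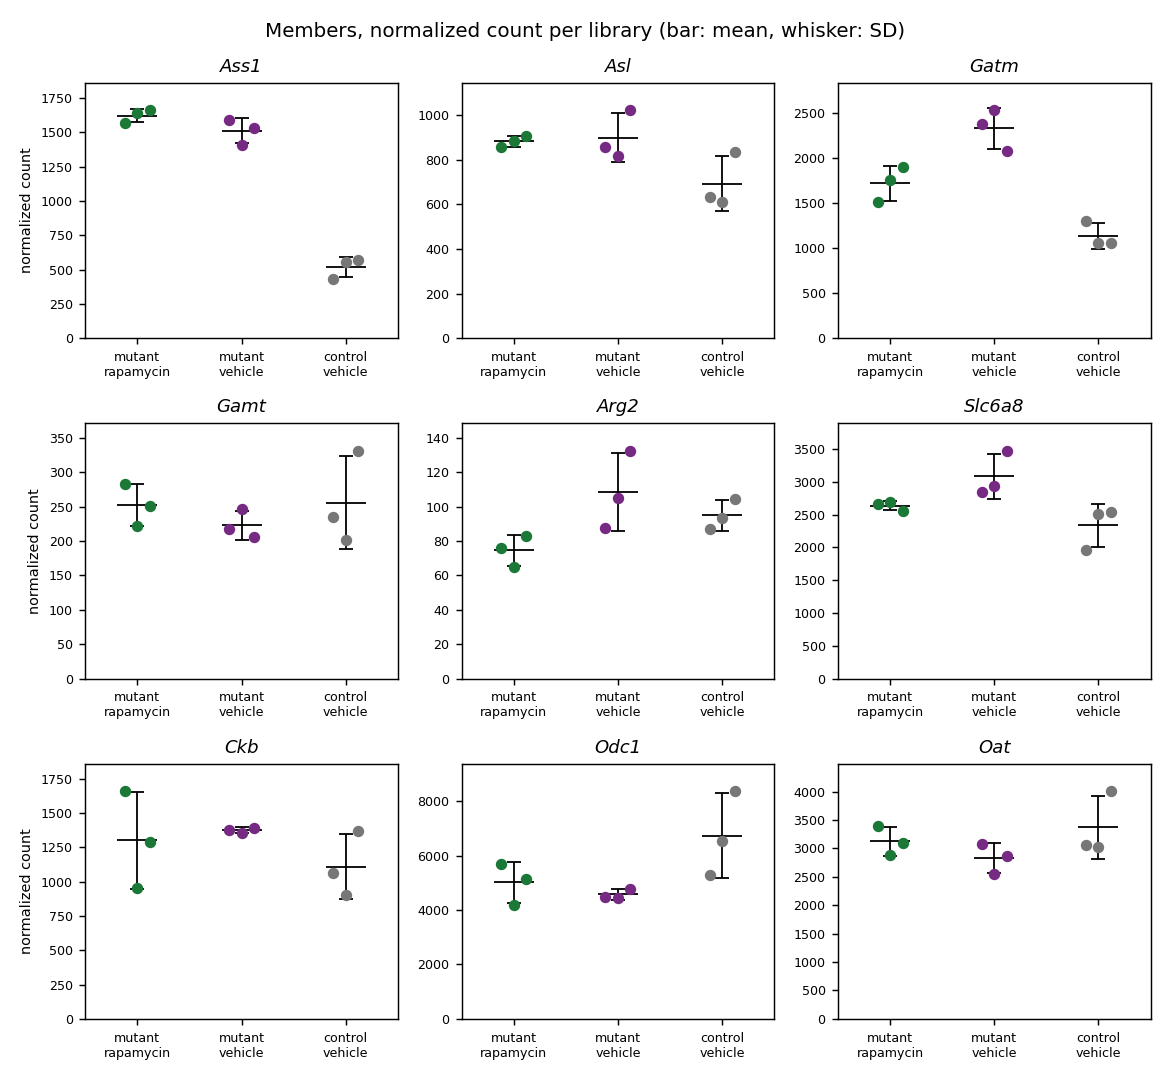
Normalized counts (vertical axes, from 0) of the 9 genes in each library, with mutant rapamycin left, mutant vehicle in the middle and control vehicle right. Each point is 1 library, the bar is the mean and the whisker the SD of 3 libraries; Ass1 stands above the controls in all 6 mutant libraries, while Gatm and Slc6a8 have mutant rapamycin between the other groups.

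Odc1 and Oat, which use ornithine, had lower means in mutant vehicle than in control vehicle libraries. Odc1, the first and rate-limiting enzyme of polyamine synthesis (ENSMUSG00000011179, chromosome 12, 17544794 to 17551505), had 5694, 4204 and 5153 normalized counts in mutant rapamycin, 4489.9, 4445 and 4788 in mutant vehicle and 5295, 6544 and 8385 in control vehicle libraries. All 3 mutant vehicle libraries lay below every control, and rapamycin library 1 lay above control 1. The log2 difference was -0.53 ± 0.17 (SE) between mutant vehicle and control vehicle, 0.12 ± 0.17 between mutant rapamycin and mutant vehicle and -0.41 ± 0.17 between mutant rapamycin and control vehicle. The controls ranged widely (SD 1555), and the first value was -0.70 without control 1 and -0.36 without control 3. The small RNA gene Gm22748 lies within Odc1 on the same strand.

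Oat (ENSMUSG00000030934, chromosome 7, 132557478 to 132576398), which links ornithine to glutamate and proline, had 3400.2, 2884 and 3089 normalized counts in mutant rapamycin, 3084, 2553 and 2858 in mutant vehicle and 3066, 3025 and 4012 in control vehicle libraries. The groups overlapped in each comparison, and control 3 was again the highest library. For Oat the log2 difference was -0.24 ± 0.14 (SE) between mutant vehicle and control vehicle and 0.14 ± 0.14 between mutant rapamycin and mutant vehicle. Oat lies within the annotated span of Fgfr2 on the same strand.

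Arg2 (ENSMUSG00000021125, chromosome 12, 79130777 to 79156301) was the lowest of the 9 genes, with 841 reads over all libraries. It had 75.8, 65.2 and 82.96 normalized counts in mutant rapamycin, 87.7, 105 and 133 in mutant vehicle and 86.9, 93.4 and 105 in control vehicle libraries. Every mutant rapamycin library lay below every library of the other 2 groups, and those 2 groups overlapped. The log2 difference was 0.17 ± 0.22 (SE) between mutant vehicle and control vehicle, -0.52 ± 0.22 between mutant rapamycin and mutant vehicle and -0.35 ± 0.22 between mutant rapamycin and control vehicle. Between mutant vehicle and control vehicle the Arg2 value was 0.31 without mutant vehicle library 1 and 0.02 without mutant vehicle library 3. Arg2 overlaps Vti1b and Gm48780 on the other strand, and the sources used here do not say whether counting used strand, so its reads may include theirs. Among the 8 leukocyte markers, the summed level was 11807 to 16541 normalized counts in mutant rapamycin, 12288 to 28253 in mutant vehicle and 12068 to 16807 in control vehicle libraries; their part in the Arg2 values was not tested.

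**Figure D2:**
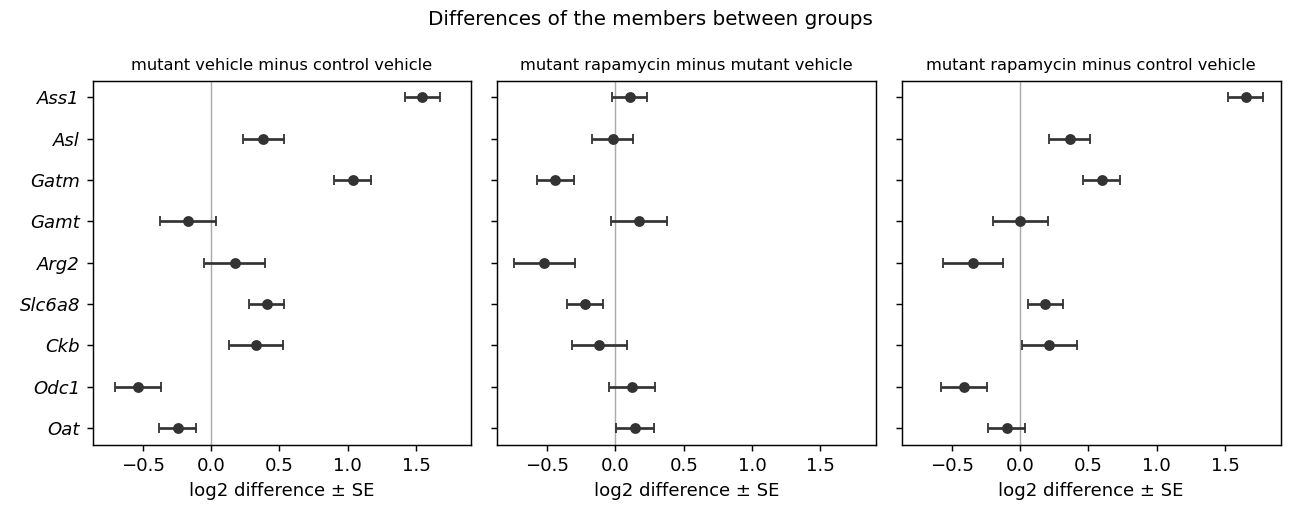
Log2 differences (horizontal axis, on the log2(normalized count + 1) scale) of the 9 genes in the 3 comparisons, points for the difference and bars for its SE. Ass1 lies at 1.55 and 1.65 in the comparisons with control vehicle and at 0.10 between the mutant groups, whereas Gatm lies at 1.04, -0.44 and 0.60 in the order of the panels.

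At an adjusted p under 0.05 (limma, Benjamini-Hochberg over 19656 genes), Ass1 and Gatm, 2 of the 9 genes, were called higher and 0 lower in mutant vehicle than in control vehicle libraries, where 1.05% of all genes were called higher and 0.366% lower. Between mutant rapamycin and mutant vehicle libraries 0 of the 9 were called, 2 of the 9 had an unadjusted p under 0.05 (11.7% of all genes) and limma-voom also called 0, against 0.244% of all genes called higher and 0.056% lower. Between mutant rapamycin and control vehicle the same 2 were called higher and 0 lower, against 2.3% and 0.941% of all genes. An unadjusted limma p under 0.05 was held by 5 of the 9 between mutant vehicle and control vehicle (10.1% of all genes). Between mutant rapamycin and control vehicle it was held by 4 of the 9 (17.5%). Nothing is read from these counts, since the genes were picked with these contrasts known. The median log2 difference of the 9 genes was 0.33, -0.02 and 0.19 in the 3 comparisons in this order, beside -0.0055, -0.0084 and -0.0049 for all genes tested. Each pair of comparisons shares the libraries of 1 group.

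Deviations from the group means correlated at 0.428, 0.137 and 0.445 between same-numbered mutant vehicle and control vehicle libraries. Rapamycin library 2 and control 1, of different numbers, reached 0.471. With the replicate number as a block in these 6 libraries, a fit chosen after seeing the data, 867 in place of 279 of all genes were called, 560 higher (2.85%) and 307 lower (1.56%). In that fit Ass1, Asl, Gatm and Slc6a8 were among those called higher and Odc1 among those called lower, from which nothing is read either. The Gatm call between mutant rapamycin and control vehicle was lost without any 1 of rapamycin libraries 1, 2 and 3, mutant vehicle library 2, control 2 or control 3, where the log2 difference was 0.52 to 0.69.

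**Figure D3:**
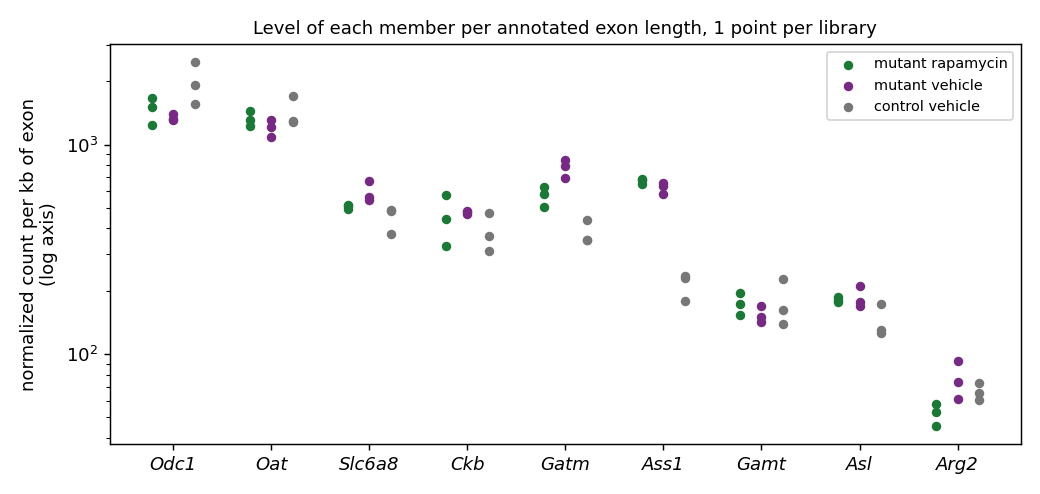
Normalized count per kilobase of annotated exon (vertical log axis) for the 9 genes, sorted by their control vehicle mean, with 1 point per library, mutant rapamycin left, mutant vehicle in the middle and control vehicle right for each gene. Odc1 and Oat are highest in each group and Arg2 lowest, and Ass1 takes the third place in mutant rapamycin, the fourth in mutant vehicle and the sixth in control vehicle libraries.

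Per kilobase of annotated exon, which allows levels to be set beside each other, Odc1 and Oat led in each group. Odc1 averaged 1473 normalized counts per kilobase in mutant rapamycin, 1343 in mutant vehicle and 1979.8 in control vehicle libraries, and Oat 1324 in mutant rapamycin, 1200.0 in mutant vehicle and 1427 in control vehicle libraries; libraries of these 2 genes overlapped in every group. In control vehicle libraries Slc6a8 (448), Ckb (383) and Gatm (379) followed, with overlapping neighbours. Ass1 (215), Gamt (177) and Asl (143) came after them, again with overlapping neighbours, and Arg2 (66.5) stood below all others. In mutant vehicle libraries Gatm held the third place at 775 normalized counts per kilobase, above Ass1 at 626 with no overlap, and Ass1 overlapped Slc6a8 at 592. In mutant rapamycin libraries Ass1 held the third place at 672, above Gatm at 572 with no overlap, and Gatm overlapped Slc6a8 at 506. Ckb (449 in mutant rapamycin, 475 in mutant vehicle) was next in both mutant groups. Exon lengths are the union over all annotated transcripts of a gene, so a level per kilobase is too low where the cells use a shorter one.

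Across the 9 libraries, with group differences included, Ass1 had a Pearson correlation of log2(normalized count + 1) of 0.806 with Asl, 0.806 with Gatm and 0.703 with Slc6a8. Odc1 and Oat correlated at 0.822, and Odc1 with Gatm at -0.844. Gamt had its highest value with Oat (0.729), and Arg2 with Slc6a8 (0.471). These values describe 9 libraries in 3 groups that share size factors and, within a library, its mix of cells.

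Among 12836 genes with a mean of at least 50 normalized counts, those most like Ass1 over the 9 libraries were Fam107a, an actin-associated protein (r = 0.989), Six3, a homeobox factor (0.984), and Adcy8, an adenylate cyclase (0.982). Six3 averaged 967 normalized counts in mutant rapamycin, 889 in mutant vehicle and 1.95 in control vehicle libraries. Only the mutant groups carried Six2 Cre, so Cre carriage and Tsc1 loss cannot be told apart in these values. Most like Gatm were Sesn1, of the sestrin family that restrains mTORC1 (0.97), Pcyt1b of phosphatidylcholine synthesis (0.958) and the kinase Tec (0.953). The gene most like Asl was Acot13, an acyl-CoA thioesterase (0.995), that most like Slc6a8 was Ogdhl (0.962), and that most like Arg2 was Snn (0.955). Odc1 was closest to the histone variant gene H2afy2 (0.982), the uridine-cytidine kinase Uck2 (0.981) and the tubulin Tubb5 (0.98), and Oat to the chaperonin subunit Cct7 (0.97). The closest to Gamt was Acyp1 (0.938) and to Ckb Trp53i11 (0.936).

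Beyond the 9 genes, 96 other genes of these pathways were listed and 87 were tested. Between mutant vehicle and control vehicle 3 of the 87 (all genes, 1.05%) were called higher and 0 lower, and between mutant rapamycin and control vehicle also 3 higher (all genes, 2.3%) and 0 lower. Between mutant rapamycin and mutant vehicle 0 were called by limma and 0 by limma-voom, with 9 at an unadjusted p under 0.05 (11.7% of all genes). Their median log2 differences were 0.01, -0.02 and -0.03 in the order mutant vehicle minus control vehicle, mutant rapamycin minus mutant vehicle and mutant rapamycin minus control vehicle.

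Carriers of arginine, its relatives and citrulline held 4 of these 6 calls. Slc7a3, a cationic amino acid transporter that takes up arginine, had 135, 158 and 119.8 normalized counts in mutant rapamycin, 183, 183 and 296 in mutant vehicle and 38.5, 53.9 and 65.2 in control vehicle libraries. The 3 groups did not overlap, with mutant vehicle highest and control vehicle lowest. It rose by 2.04 ± 0.26 (SE) log2 in mutant vehicle over control vehicle libraries (limma adjusted p = 0.00316) and by 1.39 ± 0.26 in mutant rapamycin over control vehicle libraries (adjusted p = 0.0179). Its log2 difference between mutant rapamycin and mutant vehicle was -0.65 ± 0.26 (adjusted p = 0.367). The call between mutant rapamycin and control vehicle was lost without any 1 rapamycin library or control 2, with a highest limma adjusted p of 0.0845.

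Slc7a7, which exports arginine across the basolateral side of tubule and gut cells, had 578, 402 and 585 normalized counts in mutant rapamycin, 792, 849 and 958 in mutant vehicle and 521, 359 and 375 in control vehicle libraries. All mutant vehicle libraries lay above the other 6, and the rapamycin and control libraries overlapped. It rose by 1.06 ± 0.19 (SE) log2 in mutant vehicle over control vehicle libraries (limma adjusted p = 0.0217), a call lost without mutant vehicle library 2 or 3 or control 2 or 3 (adjusted p up to 0.118) and in a fit of those 2 groups alone (0.0524). Between mutant rapamycin and mutant vehicle the log2 difference was -0.75 ± 0.19 (limma adjusted p = 0.155).

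Slc3a1, the heavy chain of the cystine and dibasic amino acid carrier of the tubule brush border, had 356, 408 and 364 normalized counts in mutant rapamycin, 286, 349.6 and 403 in mutant vehicle and 149.7, 221 and 202 in control vehicle libraries. Both mutant groups lay above every control and overlapped each other. It rose by 0.99 ± 0.19 (SE) log2 in mutant rapamycin over control vehicle libraries (limma adjusted p = 0.0201), a call lost without any 1 rapamycin library (adjusted p up to 0.0915). Its log2 difference between mutant vehicle and control vehicle was 0.86 ± 0.19 (adjusted p = 0.0589 in limma, 0.0378 without mutant vehicle library 1 and up to 0.249 without another library). With the block in those groups, a fit chosen after seeing the data, the limma adjusted p was 0.00452, and nothing is read from it. The neutral amino acid carrier Slc6a19 of the same membrane had 55.9, 48.05 and 51.95 normalized counts in mutant rapamycin, 86.7, 156 and 219.8 in mutant vehicle and 50.6, 85.3 and 88.2 in control vehicle libraries. Every rapamycin library lay below every mutant vehicle library, with a log2 difference of -1.46 ± 0.34 (limma adjusted p = 0.121). Of 9 fits that left out 1 library, 1 called it (limma adjusted p = 0.0244 without mutant vehicle library 1), and the others gave up to 0.484. The Slc6a19 log2 difference between mutant vehicle and control vehicle was 0.98 ± 0.34 (SE, limma adjusted p = 0.275, and 0.0174 with the same block, from which nothing is read either). Of the 10 tested carriers, 9 had a positive log2 difference between mutant vehicle and control vehicle (all genes, 9665 of 19656), with a median of 0.59 beside -0.01 for all genes. Between mutant rapamycin and mutant vehicle 9 had a negative one (all genes, 10102 of 19656), with a median of -0.22 beside -0.0084, and 0 were called. These counts share the mutant vehicle libraries. In the 3 comparisons 7, 3 and 3 carriers had an unadjusted p under 0.05 in limma (all genes, 10.1%, 11.7% and 17.5%).

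**Figure D4:**
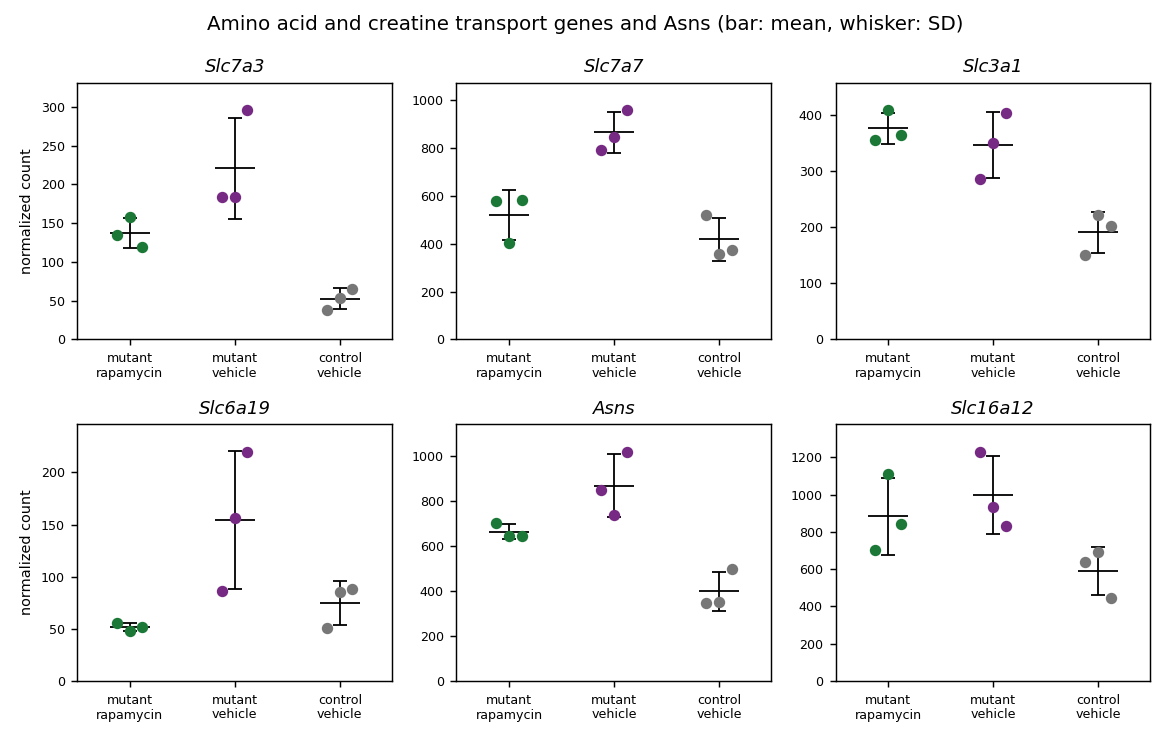
Normalized counts (vertical axes, from 0) of 4 amino acid carriers, asparagine synthetase (Asns) and the creatine carrier Slc16a12 in each library, with mutant rapamycin left, mutant vehicle in the middle and control vehicle right; bars are means and whiskers SD of 3 libraries. Slc7a3 and Asns have the 3 groups apart with mutant vehicle highest, and Slc7a7 has mutant vehicle above the other 6 libraries.

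The other calls were those of Asns, which makes asparagine from aspartate, the amino acid Ass1 also uses. It had 703, 643 and 644 normalized counts in mutant rapamycin, 846, 739 and 1017 in mutant vehicle and 344, 352 and 498 in control vehicle libraries. The groups did not overlap and kept the order of Slc7a3. Asns rose by 1.13 ± 0.17 (SE) log2 in mutant vehicle over control vehicle libraries (limma adjusted p = 0.00949) and by 0.76 ± 0.17 in mutant rapamycin over control vehicle libraries (adjusted p = 0.0421). Its difference between mutant rapamycin and mutant vehicle was -0.38 ± 0.17 (limma adjusted p = 0.435). The first call was lost without control 2 (adjusted p = 0.0592) and in a fit of those 2 groups alone (0.0545), and the second in 6 of 9 fits that left out 1 library (up to 0.184). Among the other 14 genes of proline, ornithine and glutamate metabolism none was called. P4ha1, a collagen prolyl hydroxylase, had the smallest p in the comparison of the mutant groups. It had 5149, 7289.5 and 5186 normalized counts in mutant rapamycin and 4459, 1258 and 1261 in mutant vehicle libraries, where library 1 stood far above the other 2. The log2 difference was 1.59 ± 0.50 (SE, limma adjusted p = 0.246, 0.0238 without mutant vehicle library 1 and up to 0.71 without another library).

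In the urea cycle and arginine breakdown, 7 of 11 genes were tested and 0 were called in any comparison by limma, with 1, 0 and 1 at an unadjusted p under 0.05 in mutant vehicle minus control vehicle, mutant rapamycin minus mutant vehicle and mutant rapamycin minus control vehicle. In the same order 10.1%, 11.7% and 17.5% of all genes were under that p, and the counts of the other lists stand beside the same shares. Ornithine transcarbamylase (Otc) had 1 read and carbamoyl phosphate synthetase (Cps1), which feeds it, 28 reads over all 9 libraries, so RNA of the urea cycle steps that make citrulline was scarce in these libraries. The cytosolic arginase Arg1 had 7.98, 6.86 and 22.6 normalized counts in mutant rapamycin, 12.1, 15.8 and 14.5 in mutant vehicle and 22.01, 26.04 and 29.4 in control vehicle libraries, with log2 differences of -0.82 ± 0.42 (SE, limma adjusted p = 0.589) between mutant vehicle and control vehicle and -1.17 ± 0.42 (adjusted p = 0.179) between mutant rapamycin and control vehicle. The agmatinase-family gene Agmat had 20.9, 18.3 and 17.6 normalized counts in mutant rapamycin, 14.1, 11.9 and 17.9 in mutant vehicle and 26.4, 23.3 and 30.3 in control vehicle libraries (-0.84 ± 0.29 between mutant vehicle and control vehicle, limma adjusted p = 0.292). Both genes had lower counts in each mutant vehicle library than in each control, and neither passed the test.

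Of 16 genes of arginine use, nitric oxide, protein methylation, methylarginine and charged tRNA, 0 were called by limma in any comparison, with 1, 1 and 2 at an unadjusted p under 0.05. The neuronal nitric oxide synthase Nos1 had 503, 511 and 602 normalized counts in mutant rapamycin, 550.2, 1079 and 722 in mutant vehicle and 236, 506 and 399 in control vehicle libraries. Its log2 difference between mutant vehicle and control vehicle was 1.06 ± 0.29 (SE, limma adjusted p = 0.132). With the block in those groups, a fit chosen after seeing the data, the limma adjusted p was 0.000794, and nothing is read from it. The protein arginine methyltransferase Prmt2 had log2 differences of 0.48 ± 0.17 (limma adjusted p = 0.299) between mutant rapamycin and mutant vehicle and 0.58 ± 0.17 (adjusted p = 0.10) between mutant rapamycin and control vehicle.

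Among 8 tested genes of creatine use and transport, and of the adenylate kinases that share their role in energy transfer, 0 were called by limma, with 1, 1 and 2 at an unadjusted p under 0.05. Slc16a12, a carrier that lets creatine out of cells, had 704, 1111 and 841 normalized counts in mutant rapamycin, 1230.3, 935 and 830.1 in mutant vehicle and 637, 690.5 and 443 in control vehicle libraries. Every mutant library lay above every control library, and the log2 difference between mutant vehicle and control vehicle was 0.76 ± 0.22 (SE, limma adjusted p = 0.161). With the block in those groups, a fit chosen after seeing the data, the limma adjusted p was 0.0303, and nothing is read from it. The mitochondrial adenylate kinase Ak4 had 1492, 2275 and 1801 normalized counts in mutant rapamycin, 1582, 416 and 485 in mutant vehicle and 978, 587 and 588 in control vehicle libraries. Mutant vehicle library 1 and control 1 were high in their groups for Ak4 and for P4ha1. The Ak4 log2 difference between mutant rapamycin and control vehicle was 1.39 ± 0.42 (SE, limma adjusted p = 0.109). Of 9 fits that left out 1 library, 1 called it (limma adjusted p = 0.00894 without mutant vehicle library 1), and the others gave up to 0.352. That library is in neither group compared, so the difference stayed at 1.39 and only the shared estimate of spread changed. Without it Ak4 was also called between mutant rapamycin and mutant vehicle (log2 difference 2.02, limma adjusted p = 0.0137).

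Supply of the methyl groups that Gamt uses gave 0 calls by limma among 11 tested genes, with 1, 2 and 6 at an unadjusted p under 0.05. Mat2a, which makes S-adenosylmethionine, had 5377, 5024 and 6028 normalized counts in mutant rapamycin, 8242, 7625 and 5800.4 in mutant vehicle and 7499.9, 9006 and 8173 in control vehicle libraries. All rapamycin libraries lay below all controls, with a log2 difference of -0.59 ± 0.14 (SE, limma adjusted p = 0.0547). It was called in 3 of 9 fits that left out 1 library. The limma adjusted p was 0.0301 to 0.0409 without mutant vehicle library 1, mutant vehicle library 3 or control 1, and up to 0.229 without another library. Without either of those mutant vehicle libraries the difference itself stayed at -0.59, since they are in neither group compared. Cth, which makes cysteine from cystathionine, had log2 differences of 0.39 ± 0.17 (limma adjusted p = 0.444) between mutant vehicle and control vehicle and 0.57 ± 0.17 (adjusted p = 0.10) between mutant rapamycin and control vehicle.

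Beside Odc1, 0 of 20 genes of polyamine synthesis and turnover were called by limma in any comparison, with 2, 1 and 2 at an unadjusted p under 0.05. Spermine synthase (Sms) had 1222, 1288 and 1292 normalized counts in mutant rapamycin, 1606, 1213 and 1068 in mutant vehicle and 1671, 1669 and 1634 in control vehicle libraries. All 6 mutant libraries lay below every control. The log2 difference was -0.38 ± 0.14 (SE, limma adjusted p = 0.352) between mutant vehicle and control vehicle and -0.39 ± 0.14 (adjusted p = 0.186) between mutant rapamycin and control vehicle. Of 9 fits that left out 1 library, 1 called the first (limma adjusted p = 0.0474 without mutant vehicle library 1), and the others gave up to 0.828. Sat1, which acetylates polyamines for breakdown and export, had a log2 difference of 0.41 ± 0.15 between mutant vehicle and control vehicle (limma adjusted p = 0.334). Spermidine synthase (Srm) averaged 1793 ± 395 normalized counts in mutant rapamycin, 1745 ± 211 in mutant vehicle and 2023 ± 468 in control vehicle libraries (SD, n = 3 each). Eif5a2, whose protein carries the spermidine-derived residue hypusine, had a log2 difference of -0.45 ± 0.18 between mutant rapamycin and mutant vehicle (limma adjusted p = 0.356).

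Marker levels of several cell types differed between the groups beside these genes. Of all genes, 1.05% were called higher and 0.366% lower in mutant vehicle than in control vehicle libraries. The shares were 0.244% and 0.056% in mutant rapamycin against mutant vehicle, and 2.3% and 0.941% in mutant rapamycin against control vehicle. Of the 16 proximal tubule markers, 1 was called higher and 0 lower in mutant vehicle than in control vehicle libraries, with a median log2 difference of 0.02. That gene was the lactate carrier Slc5a12 (1.42 ± 0.29, SE, limma adjusted p = 0.0423). In mutant rapamycin over control vehicle libraries the endocytic receptor Lrp2 (0.99 ± 0.21, adjusted p = 0.0276) and the organic anion carrier Slc22a6 (0.78 ± 0.17, adjusted p = 0.0371) were called higher by limma, with a median of 0.46 over the list. The 10 markers of committed nephron summed to 34287 to 46610 normalized counts in mutant rapamycin, 49177 to 55576 in mutant vehicle and 54816 to 72700 in control vehicle libraries. The 10 nephron progenitor markers, Six2 included, summed to 30924 to 34325 in mutant rapamycin, 29388 to 32952 in mutant vehicle and 23145 to 26437 in control vehicle libraries. Of them 8 had a positive and 2 a negative log2 difference in each comparison with control vehicle, and 4 were called higher in each. Of the committed nephron markers 5 were called lower and 1 higher in mutant rapamycin than in control vehicle libraries. Of 9 tested loop and distal tubule markers, 2 were called lower in mutant vehicle and 1 in mutant rapamycin than in control vehicle libraries. In mutant rapamycin libraries 3 stromal markers were called higher than in control vehicle and 1 higher than in mutant vehicle libraries. Of 12 markers of collecting duct and ureteric bud, 6 were called lower in mutant vehicle than in control vehicle libraries. In mutant rapamycin libraries 6 of the 12 were called higher than in mutant vehicle and 2 higher than in control vehicle libraries. They summed to 8306 to 9022 in mutant rapamycin, 4333 to 5513 in mutant vehicle and 6828 to 8713 in control vehicle libraries. The 6 intercalated cell markers summed to 576 to 764 in mutant rapamycin, 208 to 260.0 in mutant vehicle and 952 to 1098 in control vehicle libraries, and 4 of them were called lower in mutant vehicle than in control vehicle and 3 higher in mutant rapamycin than in mutant vehicle libraries. The 8 podocyte markers summed to 13247 to 16185 in mutant rapamycin, 19483 to 20064 in mutant vehicle and 17502 to 20226 in control vehicle libraries, with 1 called lower in mutant rapamycin than in mutant vehicle and 3 lower than in control vehicle libraries. The 8 endothelial markers summed to 25490.4 to 34211 in mutant rapamycin, 18481 to 24247 in mutant vehicle and 19886 to 22890.4 in control vehicle libraries, and 2 were called higher and 1 lower in mutant rapamycin than in control vehicle libraries. Of 12 skeletal muscle markers 10 had counts, of which desmin (Des), also made outside skeletal muscle, had 1375 to 2097 in mutant rapamycin, 1200.5 to 1301 in mutant vehicle and 507 to 901 in control vehicle libraries. The other 9 summed to 161 to 236 in mutant rapamycin, 209 to 319 in mutant vehicle and 173 to 243 in control vehicle libraries. Of 6 tested skeletal muscle markers 1 was called higher in mutant rapamycin than in control vehicle libraries. The part of these cell types in the values of the 9 genes was not tested.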

How the data were processed

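Per the labels' protocols, kidneys were cut up and digested enzymatically, CD133-positive cells were sorted, RNA was taken with Trizol, and stranded mRNA libraries were read on a NextSeq 500. Per the submitters' processing notes, the authors used DESeq2 1.22.1, HTSeq 0.6.0, TopHat2 2.1.1 and cutadapt 1.18 on GRCm38; how each was set, strand use included, is not given in the sources used here. Their deposited table, made by the authors, holds raw counts for 48586 genes, a mark in place of counts for 6252, and normalized counts for the 24539 with at least 10 raw counts; a normalized count is the raw count over 1 size factor per library (0.874 to 1.19).

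The test was limma 3.58.1 on log2(normalized count + 1) (trended and robust variance, statmod 1.5.0, R 4.3.3) over genes with a mean of at least 5, in 1 fit of 3 group means for all 9 libraries. A call needed an adjusted p under 0.05 (Benjamini-Hochberg, every tested gene included). This scale understates the change of low genes. Replicates of a group differed beyond sampling noise (lowest chi-square per degree of freedom 15.6). The deviations of same-numbered libraries correlated at 0.428, 0.137 and 0.445 between mutant vehicle and control vehicle. Those of different numbers correlated at -0.45 to 0.0647 between these groups. Deviations cancel within a group, so these values are not independent of the same-numbered ones. The block in these groups rests on these values, not on the labels, and whether the numbers mark pairs was not tested. Same-numbered libraries correlated at -0.134 to 0.0768 between mutant rapamycin and mutant vehicle and at -0.338 to 0.218 between mutant rapamycin and control vehicle. Rapamycin library 2 and control 1 correlated at 0.471, so such a value also arose without a shared number.

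The 9 genes, the pathway and marker lists and the tests were chosen with earlier results of these data known. Named pathway genes were, in each list, those called in a comparison (up to 4) and otherwise the one with the smallest p; Ckmt1, Srm, Otc, Cps1, Ckm and Ckmt2 were added for their roles after their values were seen. The most similar genes were the 3 with the highest correlation, without predicted and sex-linked genes. Exon lengths are the union of GENCODE M21 exons, whose coordinates matched the table for all 9 genes.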

Additional observations from a re-analysis of the deposited data

How the results depend on the processing

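The calls rest on 3 libraries a group. The planned edgeR and DESeq2 tests were not run, since the count columns hold marks that are not numbers and were not accepted as counts. Ass1 and Gatm, the called ones of the 9 genes, kept their sign against control vehicle in the alternative fits. Blocks and fits of only the 2 groups compared leave a log2 difference as it was, so they cannot change its sign. Uncalled values changed sign, as given above for Asl, Gamt and Ckb. Among the alternative log2 differences of the named pathway genes 24 lost and 22 gained a call. TMM scaling moved no median of all genes by over 0.02. A replicate block in mutant vehicle and control vehicle called 867 genes, 5 of the 9 and 8 pathway genes. A block over all 9 libraries was also fitted, though the rapamycin libraries showed no pairing by number. Among the named pathway genes it added calls of Nos1 (limma adjusted p = 0.0302) and Slc3a1 (0.0241) between mutant vehicle and control vehicle. Between mutant rapamycin and control vehicle it called 1090 genes. Between mutant rapamycin and mutant vehicle it called 206 genes and 1 pathway gene (Slc6a19, limma adjusted p = 0.0481). Fits of only the 2 groups compared called 99 genes and 1 pathway gene between mutant vehicle and control vehicle. Between mutant rapamycin and control vehicle such a fit lost the call of Asns (limma adjusted p = 0.0584). It added calls of Ak4 (0.0191), P4ha1 (0.0446) and Mat2a (0.0476). Without both control 1 and rapamycin library 2, 22 genes were called between mutant rapamycin and mutant vehicle. Between mutant rapamycin and control vehicle that fit lost the calls of Slc7a3 (limma adjusted p = 0.0893), Slc3a1 (0.102) and Asns (0.141). The causes were not tested. Leaving out 1 library at a time gave, between mutant vehicle and control vehicle, 81 (without mutant vehicle library 2) to 336 genes, 2 to 2 of the 9 and 1 to 5 pathway genes. It gave 0 (without rapamycin library 2) to 200 genes (without mutant vehicle library 1), 0 to 0 of the 9 and 0 to 3 pathway genes between mutant rapamycin and mutant vehicle. Between mutant rapamycin and control vehicle it gave 175 (without control 2) to 1131 genes (without control 1), 1 to 2 of the 9 and 0 to 6 pathway genes.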
